A study of Mus musculus with 16 samples.

Results

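The genome-wide distribution of histone H2B monoubiquitylation (H2Bub1) was compared between wild-type (WT) mouse embryonic stem cells (mESCs) and WT mouse embryonic fibroblasts (MEFs), that is, in the presence of Atxn7l3. All H2Bub1 peaks of both WT libraries on the 19 autosomes were taken, which gave 40742 peaks in mESCs and 19578 in MEFs, in all 60320 of the 245651 peaks of the 8 lists of the series. Both WT groups were Atxn7l3+/+ on a DBA/2 x C57BL/6 background and received no treatment other than their culture. The mESCs were grown on feeder cells at first and then without them, with LIF, 15% foetal calf serum, 1.0 uM PD0325901 and 3.0 uM CH99021, inhibitors of the kinases MEK and GSK3. The MEFs were primary cells of E10.5 embryos in medium with 10% foetal calf serum, which leaves the source tissues mixed. The chromatin was immunoprecipitated with an H2Bub1 antibody and sequenced (ChIP-seq), in 1 library per cell type. With 1 library per group there is no replicate check and no p-value, and the sequencing depth of either library is unknown. The 95% intervals of shares and medians given below are exact binomial ones and cover counting error within a list only. An interval of a difference joins the outer ends of 2 such intervals and is wider than a 95% one.

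H2Bub1 is placed on histone H2B by the ligase pair RNF20 and RNF40 with the conjugating enzymes UBE2A and UBE2B, which travel with elongating RNA polymerase II (Pol II) through the PAF1 complex. The mark is therefore known from the bodies of transcribed genes, where it lies downstream of the transcription start site (TSS). It is removed by a module of the coactivator complex SAGA, in which the protease USP22 works with ATXN7L3, ATXN7 and ENY2, and related proteases act on H2Bub1 outside SAGA with ATXN7L3 and ENY2.

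The lists of the cell types differed at the start of the gene, and the promoters of 5 genes are shown for that reason. Each window runs from 250 bases before to 50 bases after the RefSeq start (GRCm38.p6), and capitals mark CG dinucleotides, a word that reads the same on both strands. Pou5f1 encodes OCT4 and Tdgf1 the NODAL co-receptor CRIPTO, both expressed in pluripotent cells, and H2Bub1 peaks of mESCs covered 300 of the 300 bases of both windows.
Pou5f1, chr17:35505782-35506081, plus strand: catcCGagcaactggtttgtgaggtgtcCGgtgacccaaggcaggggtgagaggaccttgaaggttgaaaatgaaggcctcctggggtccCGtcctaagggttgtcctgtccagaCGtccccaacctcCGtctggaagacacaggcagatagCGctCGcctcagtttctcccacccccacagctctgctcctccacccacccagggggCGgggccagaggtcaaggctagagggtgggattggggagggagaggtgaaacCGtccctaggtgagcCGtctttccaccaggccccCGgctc
Tdgf1, chr9:110946109-110946408, minus strand: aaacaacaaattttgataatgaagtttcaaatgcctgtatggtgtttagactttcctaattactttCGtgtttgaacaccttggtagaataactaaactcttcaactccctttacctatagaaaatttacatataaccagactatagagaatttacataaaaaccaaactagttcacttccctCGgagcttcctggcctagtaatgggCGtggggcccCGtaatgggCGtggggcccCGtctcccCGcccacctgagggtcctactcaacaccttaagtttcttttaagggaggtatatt
The window of Nanog, which encodes another pluripotency factor, had 0 bases covered in mESCs and in MEFs, although 81.3% of its gene body was covered in mESCs.
Nanog, chr6:122707239-122707538, plus strand: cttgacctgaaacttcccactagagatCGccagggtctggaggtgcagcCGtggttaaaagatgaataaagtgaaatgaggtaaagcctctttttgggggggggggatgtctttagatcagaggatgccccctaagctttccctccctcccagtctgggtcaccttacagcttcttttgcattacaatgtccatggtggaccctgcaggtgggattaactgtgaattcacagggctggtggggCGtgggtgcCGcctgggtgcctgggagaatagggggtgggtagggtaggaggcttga
The mesenchymal transcription factor genes Twist1 and Foxc1 had H2Bub1 over 62.4% and 58.7% of the gene body in MEFs and 0% in mESCs, and 0 bases of either window were covered in MEFs.
Twist1, chr12:33957421-33957720, plus strand: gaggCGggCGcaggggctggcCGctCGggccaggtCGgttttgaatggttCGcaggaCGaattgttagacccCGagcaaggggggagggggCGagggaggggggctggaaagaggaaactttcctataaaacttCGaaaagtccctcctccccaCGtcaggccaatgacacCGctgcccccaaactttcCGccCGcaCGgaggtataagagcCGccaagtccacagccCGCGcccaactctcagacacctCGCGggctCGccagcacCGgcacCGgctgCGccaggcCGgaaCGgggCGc
Foxc1, chr13:31806396-31806695, plus strand: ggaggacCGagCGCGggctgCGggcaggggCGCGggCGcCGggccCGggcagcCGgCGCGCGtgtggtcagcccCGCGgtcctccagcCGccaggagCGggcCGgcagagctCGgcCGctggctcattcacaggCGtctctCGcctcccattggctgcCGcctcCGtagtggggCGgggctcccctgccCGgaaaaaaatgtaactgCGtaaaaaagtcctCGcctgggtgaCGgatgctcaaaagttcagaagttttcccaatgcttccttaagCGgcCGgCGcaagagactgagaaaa
The windows held 11 CG dinucleotides at Pou5f1, 7 at Tdgf1, 4 at Nanog, 27 at Twist1 and 32 at Foxc1. Among the 13555 genes with a RefSeq window within 1000 bp of the TSS used here, the median was 16 and 65% had 10 or more. The median was 25 for genes with H2Bub1 in both cell types, 19 for genes with H2Bub1 in mESCs alone, 18 for those with H2Bub1 in MEFs alone and 5 for genes without H2Bub1. CG-rich starts were thus common to the genes of both lists, and the genes without the mark stood apart.

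The labelled cell types were checked first. All 10 markers of mESCs had H2Bub1 in the mESC list and 0 in the MEF list, and 8 of them had a Pol II peak within 1000 bp of the TSS in WT mESCs against 0 in WT MEFs. Of the 10 fibroblast markers, 7 had H2Bub1 in MEFs (Col1a1, Col1a2, Col3a1, Twist1, Prrx1, Pdgfrb and Fn1) and 10 had a Pol II promoter peak there. Postn, Thy1 and Twist2 had no H2Bub1 peak in MEFs. In mESCs, Col1a1 and Fn1 had H2Bub1, covered over 9.45% and 33.1%, and 1 of the 10 markers had a Pol II promoter peak. The part of feeder cells in these values was not tested. In such bulk samples, fewer cells that carry the mark and less of it per cell cannot be told apart.

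The lists differed in base composition. Autosomes have a GC content of 41.9%. The H2Bub1 peaks of mESCs had a median GC of 52.1% (52.1 to 52.2%) and those of MEFs one of 46.0% (45.9 to 46.1%), and 64.5% of the mESC peaks and 26.5% of the MEF peaks had a GC content over 50%. The KO libraries showed the same order, with medians of 49.2% in mESCs and 45.0% in MEFs, as did the WT Pol II libraries, with 57.2% and 49.3%. The libraries of the cell types also carry different library name prefixes in the files, so the cell type cannot be told apart from the library series. The part of GC content in the comparisons was not tested, and values by GC content are given beside them.

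The mESC list was longer and the MEF list had wider peaks. The MEF list held 0.481 times as many peaks and covered 0.671 times as many bases, 47.9 Mb against 71.3 Mb. The mESC peaks had a median width of 957 bp (947 to 967 bp) and the MEF peaks one of 1317 bp (1294 to 1339 bp). Peaks of at least 5000 bp made up 6.46% of the mESC list (6.22 to 6.70%) and 11.3% of the MEF list (10.9 to 11.8%), and they held 34.5% and 45.3% of the covered bases. The order of the widths turned when the mESC list was reduced to its 19578 peaks of highest -log10 p, which had a median width of 1404 bp.

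**Figure D1:**
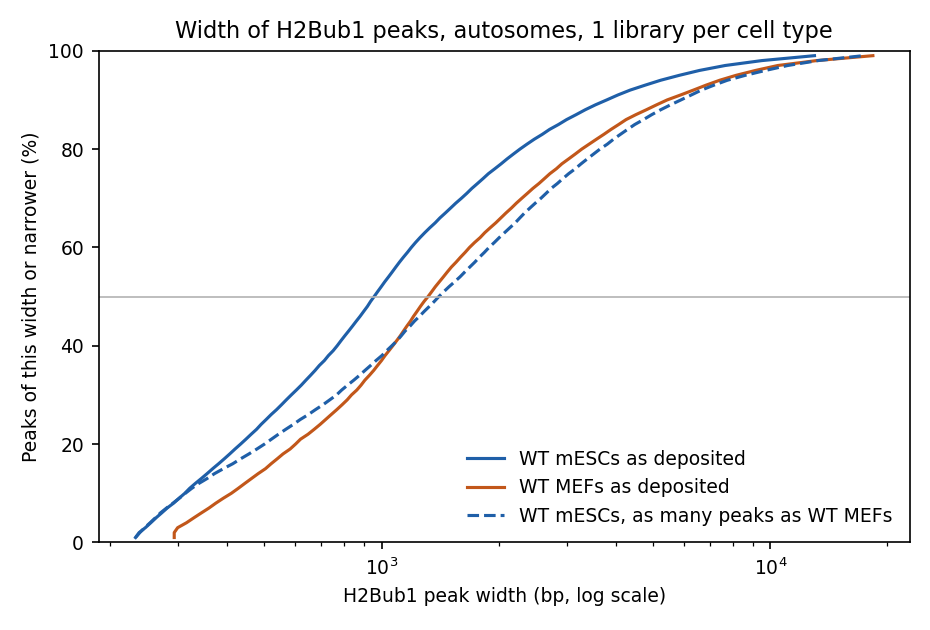
Share of H2Bub1 peaks (vertical axis, %) of a given width or narrower (horizontal axis, bp, log scale) in WT mESCs (blue), WT MEFs (orange) and the 19578 mESC peaks of highest -log10 p (dashed). The curve of all mESC peaks lies to the left of the MEF curve, with medians of 957 and 1317 bp, while the dashed curve has a median of 1404 bp.

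The widest stretches lay over long genes of chromatin and signalling proteins. The widest mESC peak spanned 67.0 kb at Kat6b (chr14:21468252-21535207), which encodes a histone acetyltransferase, and MEF peaks covered 13.4% of it. Next came peaks of 54.0 kb at Jade1, 53.2 kb at Actn1, 50.03 kb at Ago2 and 49.95 kb at Jarid2. MEF peaks covered 87.9% of the peak at the alpha-actinin gene Actn1 and 89.8% of that at Ago2, but 11.01% of that at Jade1. Among the widest MEF peaks were those of 52.8 kb at the kinase gene Gsk3b (chr16:38095212-38148054), 48.0 kb at Fbxo11 and 46.5 kb at Bptf, a chromatin remodelling subunit gene. The mESC list covered 47.4% of the peak at Gsk3b, 25.4% of that at Fbxo11 and 85.7% of that at Bptf. None of the 5 widest peaks of either list lay at the same gene.

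The peaks of highest fold enrichment were narrow beside these, from 0.562 to 9.04 kb wide. Fold enrichment here is the deposited ratio of a peak to its own background, so its size is a value within each library. In mESCs it was among the highest at the histone H3.3 gene H3f3b, with 11.5, and the prothymosin gene Ptma, with 11.3. In MEFs it was highest at Bcl7a, with 7.71, the splicing factor gene Hnrnpk, with 6.53, and the heat shock cognate gene Hspa8, with 6.51. Ptma was among the 5 highest of both lists. The other list covered between 48.9% and 100% of each of the peaks named here. In all, 13.7% of the mESC peaks and 6.83% of the MEF peaks had a -log10 q of at least 3.

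In the lists as deposited, a larger share of the MEF peaks than of the mESC peaks was touched by a peak of the other list. A MEF peak overlapped 28.6% of the mESC peaks (28.2 to 29.1%), and a mESC peak overlapped 51.9% of the MEF peaks (51.2 to 52.6%). The lists shared 19.9 Mb, while 51.4 Mb were covered in mESCs alone and 28.0 Mb in MEFs alone. The shared bases were 27.9% of the mESC coverage and 41.6% of the MEF coverage. Sharing went with the strength of the call. In 5 equal parts by -log10 p, the overlapped share of mESC peaks went from 11.2% in the weakest part to 58.2% in the strongest, and that of MEF peaks from 42.2% to 68.5%. The mESC peaks without a MEF counterpart had a median width of 830 bp and a median GC of 52.9%, and the MEF peaks without a mESC counterpart had a median width of 1042 bp and a median GC of 44.2%. Shared peaks were wider, with medians of 1609 bp in mESCs and 1868 bp in MEFs, and closer in GC, with 49.8% and 48.2%. When the lists were set to equal numbers, the overlapped shares came to 42.6% of mESC and 40.3% of MEF peaks.

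H2Bub1 lay almost wholly within genes in both cell types. Protein-coding gene bodies take up 40.3% of the autosomes and held 91.1% of the covered bases in mESCs and 97.9% in MEFs. Outside them lay 4154 mESC peaks and 407 MEF peaks. Of the mESC ones, 15.6% lay within 5000 bp upstream of a TSS, a further 19.14% within 5000 bp downstream of a gene end and 45.8% neither there nor in any other annotated gene. The corresponding shares in MEFs were 13.8%, 28.3% and 14.5%. Within genes the mESC list lay more often over exons. Exons make up 7.15% of gene-body bases, and they held 17.4% of the covered gene-body bases in mESCs and 6.69% in MEFs. Bases within 1000 bp of a TSS were 10.4% of the covered bases in mESCs and 5.05% in MEFs, against 1.59% of the autosomes.

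The position of the mark along the gene was examined over the 6090 genes with H2Bub1 in both cell types. The TSS, taken as the 5′ end of the gene record, lay inside a peak in 39.3% of them in mESCs (38.1 to 40.6%) and in 11.97% in MEFs (11.2 to 12.8%). It did so in both cell types at 525 genes, in mESCs alone at 1870 and in MEFs alone at 204. In mESCs the share of genes inside a peak had a sharp maximum of 72.9% at 400 bp downstream of the TSS. In MEFs the maximum was 41.9%, at 950 bp, and shares within its interval stretched from 650 to 1300 bp. Among the 2201 genes with no other gene within 5000 bp the maxima were closer, at 450 bp in mESCs (350 to 550 bp) and 700 bp in MEFs (550 to 1100 bp). The first covered base lay at a median of 71 bp from the TSS in mESCs and 845 bp in MEFs. Thus at genes that carried the mark in both cell types, the covered stretch began nearer to the TSS in mESCs. With equal numbers of peaks the maxima stayed at 400 and 950 bp and the TSS lay inside a peak in 40.5% and 12.4% of the genes with both. In the KO libraries the maxima over the same 6090 genes were at 550 bp in mESCs and 1100 bp in MEFs, but the TSS lay inside a peak in 77.0% and 77.8% of them, so the WT order at the TSS itself was not seen there.

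Farther into long genes the order was the other way round. Over the 3834 of these genes that were at least 20 kb long, the share inside a peak at 5000 bp from the TSS came to 29.2% (27.8 to 30.7%) for mESCs and 36.7% (35.1 to 38.2%) for MEFs. At 10000 bp it was 23.7% in mESCs and 29.7% in MEFs. At 1000 bp it had been 54.3% and 36.3%. The MEF curve of these long genes was nearly flat from 500 bp (35.6%) to 5000 bp. At the gene end, mESC coverage was higher again, with 11.03% against 2.19%, and over all 6090 genes it was 19.6% against 6.14%. Over all 6090 genes the shares at 5000 bp were 34.2% in mESCs and 33.1% in MEFs, with overlapping intervals, and at 10000 bp 26.0% and 22.8%. The 2201 of these genes with no other gene within 5000 bp, whatever their length, had 37.5% in MEFs and 33.8% in mESCs at 5000 bp, with overlapping intervals. At 10000 bp MEFs were the higher ones among them, with 28.2% against 23.7%. The mean covered base lay at a median of 37.4% of the gene body from the TSS in mESCs and 27.9% in MEFs, but with equal numbers of peaks at 28.9% and 28.3%. Of the 6090 genes, 40.5% were covered in 1 stretch in MEFs and 27.2% in mESCs. Among the 2201 genes with no other gene within 5000 bp these shares were 30.35% and 25.99%. They were not repeated with equal numbers of peaks, and the MEF list held fewer peaks.

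**Figure D2:**
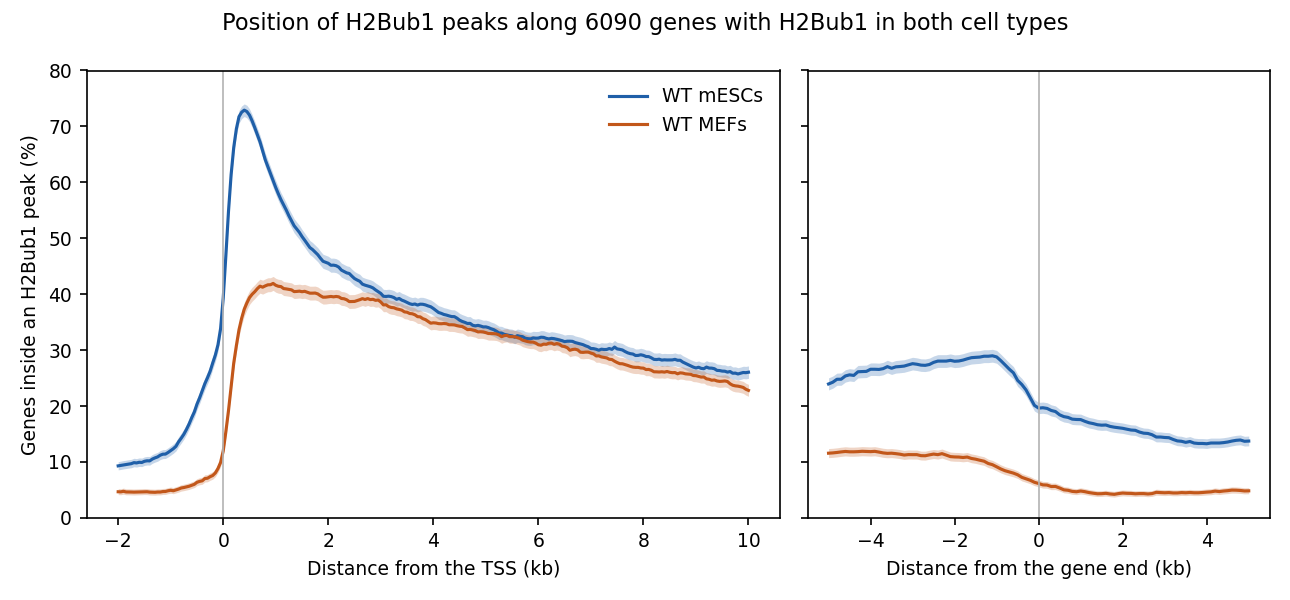
Share of the 6090 genes with H2Bub1 in both cell types that lay inside an H2Bub1 peak (vertical axis, %) by distance from the TSS and from the gene end (horizontal axes, kb), with 95% exact binomial intervals as bands. The mESC curve (blue) has a maximum of 72.9% at 400 bp and the MEF curve (orange) one of 41.9% at 950 bp, and mESCs lie above MEFs around the gene end.

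The place near the TSS held in each GC class. In 5 equal parts of all genes by GC content of the gene body, the maximum of mESCs among genes with both lay at 350 to 700 bp and that of MEFs at 500 to 1600 bp, and within each part the MEF maximum lay farther from the TSS. In the part of lowest GC it was 81.8% at 350 bp in mESCs and 49.4% at 500 bp in MEFs, and in the part of highest GC 72.7% at 700 bp and 47.3% at 1600 bp. The order at 5000 bp depended on GC: in the lowest part 16.1% of genes were inside a mESC peak and 39.1% inside a MEF peak, and in the highest part 56.2% and 27.5%.

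By gene, 11592 of 20807 autosomal protein-coding genes (55.7%) had at least 1 bp of H2Bub1 peak in the gene body in mESCs and 6586 (31.7%) in MEFs. Both lists marked 6090 genes, 5502 (26.4%) were marked in mESCs only and 496 (2.38%) in MEFs only, and 8719 in neither. Of the MEF genes, 92.5% (91.8 to 93.1%) had H2Bub1 in mESCs too. With equal numbers of peaks, 5548 genes were marked in both, 3303 in mESCs only and 1038 in MEFs only. Coverage of the gene body was higher in mESCs by 20 percentage points or more at 3584 genes (17.2%) and higher in MEFs by as much at 673 (3.23%). These counts were 2406 and 901 in lists of equal numbers. Genes with both had a median of 20.5% of the gene body covered in mESCs (19.6 to 21.9%) and 16.1% in MEFs (15.3 to 16.7%). This order did not hold with equal numbers of peaks, where the medians were 15.6% and 17.4%.

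GC content and gene length went with these calls. Genes marked in mESCs only had a median GC of 49.3% and a median length of 17.3 kb, and genes marked in MEFs only had 42.8% and 35.8 kb. In the part of genes with the lowest GC, 29.6% had H2Bub1 in mESCs and 24.3% in MEFs, and in the part with the highest GC 76.3% and 29.6%. The MEF share lay between 24.3 and 37.3% and was highest in the second part, and the mESC share went up in each step. The covered share of genes with both went from 3.80% to 67.7% over the same range in mESCs and from 11.6% to 27.5% in MEFs, so that MEFs were higher in the lowest 2 parts and mESCs in the upper 3. Among genes of 20 to 50 kb in the middle part by GC, 67.9% had H2Bub1 in mESCs and 43.2% in MEFs, with medians of 20.4% and 14.3% covered among genes with both. A larger number of marked genes in mESCs was thus found in each GC part.

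**Figure D3:**
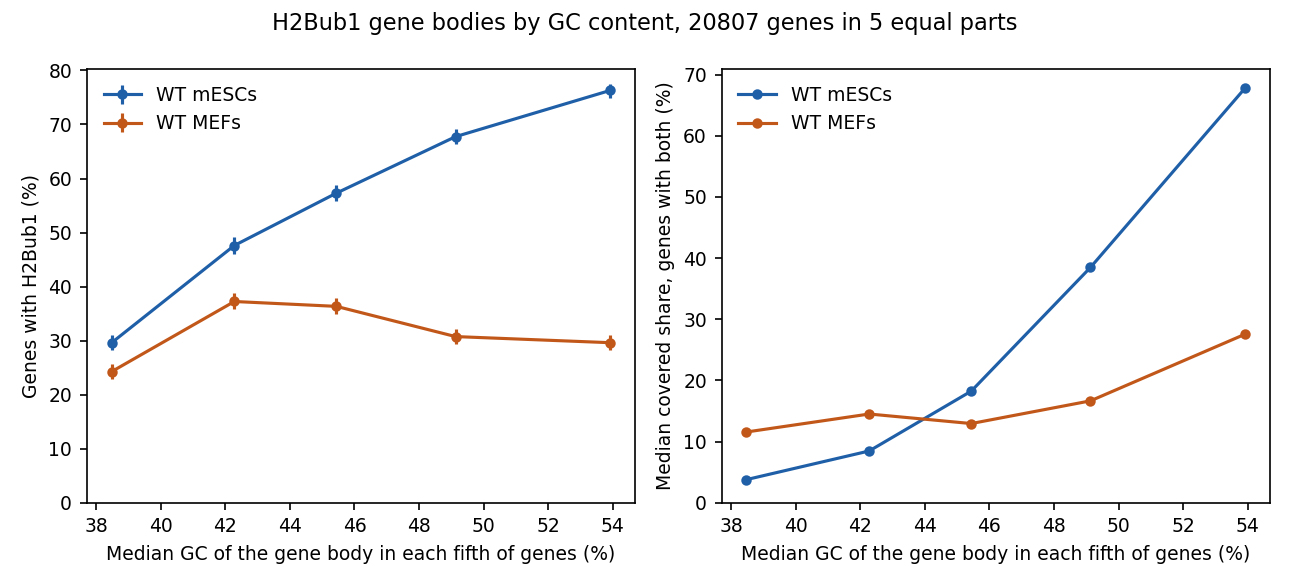
Share of genes with H2Bub1 in the gene body (left, %, bars are 95% exact binomial intervals) and median covered share of genes with H2Bub1 in both cell types (right, %) against the median GC of the gene body (horizontal axes, %) in 5 equal parts of 20807 genes. The mESC share (blue) goes from 29.6% to 76.3% and the MEF share (orange) stays between 24.3% and 37.3%.

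The other readouts of the same genes were then set beside the calls. A Pol II promoter peak was present in WT mESCs at 69.3% of the genes with H2Bub1 in both, 45.8% of those marked in mESCs only, 21.8% of those marked in MEFs only and 5.57% of those in neither. In WT MEFs the shares were 93.6%, 65.3%, 87.7% and 20.2%. Of all 20807 genes, 7336 had such a peak in mESCs and 11497 in MEFs, where the Pol II list was longer, with 44890 peaks against 16925. Genes marked in mESCs only were thus above all genes in both cell types, and those marked in MEFs only were above all genes in MEFs and below them in mESCs. In the KO libraries, 61.7% of the genes marked in WT mESCs only had H2Bub1 in KO MEFs, and 67.5% of those marked in WT MEFs only had it in KO mESCs. Both lay near the background, since 11289 of all 20807 genes had H2Bub1 in KO MEFs and 12922 in KO mESCs. Of the 673 genes covered more in WT MEFs, 93.5% had a higher covered share in KO MEFs than in KO mESCs, against 35% of all genes. Of the 3584 genes covered more in WT mESCs, 66.0% had a higher share in KO mESCs, against 28.4% of all genes. These shares of all genes count genes with equal KO shares, such as genes without a peak in either KO list, as not higher. Among genes whose KO shares differ, both would be larger.

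**Figure D4:**
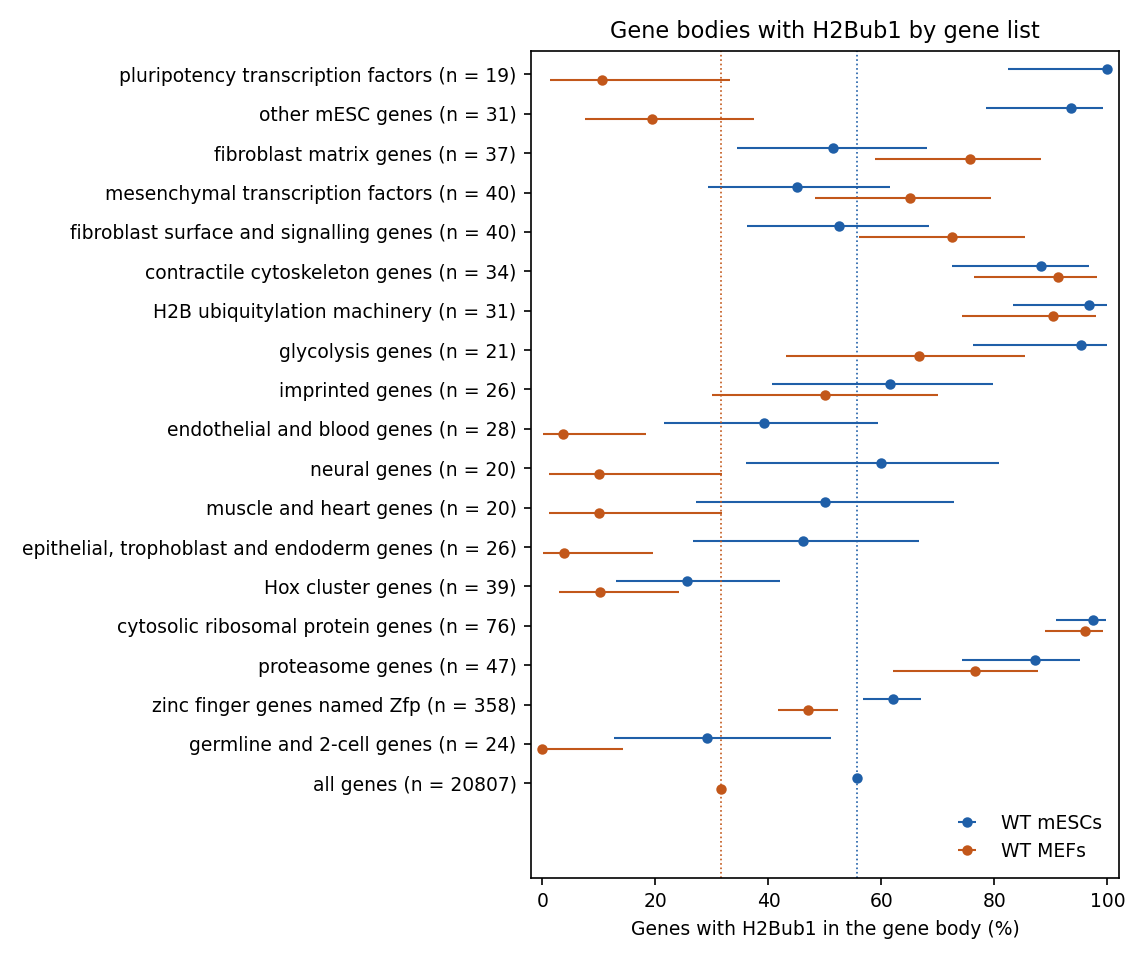
Share of genes with H2Bub1 in the gene body (horizontal axis, %) for each gene list and for all genes, in WT mESCs (blue) and WT MEFs (orange), with 95% exact binomial intervals and dotted lines at the shares of all genes. All 19 pluripotency transcription factor genes had H2Bub1 in mESCs and 2 of them in MEFs.

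The counts of the gene lists are read against all genes, of which 55.7% were marked in mESCs and 31.7% in MEFs. Since coverage in mESCs went with GC, the median GC of the gene bodies is given too: it was 45.5% for all genes, 48.9% for pluripotency factors, 46.8% for other mESC genes, 46.5% for matrix genes, 47.8% for mesenchymal factors, 46.5% for surface genes, 49.5% for contractile genes, 46.1% for the H2B ubiquitylation machinery, 49.1% for glycolysis, 49.2% for ribosomal protein genes, 45.9% for proteasome genes and 43.1% for Zfp genes.

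The genes of pluripotency differed between the cell types. Of 19 pluripotency transcription factor genes measured, 19 had H2Bub1 in mESCs and 2 in MEFs, with medians of 75.9% and 0% of the gene body covered, and 16 were covered more in mESCs by 20 points or more and 0 in MEFs. The core factor genes Pou5f1, Sox2 and Nanog were covered over 87.7%, 100% and 81.3% in mESCs and 0% in MEFs. The genes for the naive-state factors Esrrb, Tfcp2l1, Zfp42 and Prdm14 were covered over 32.8%, 61.3%, 75.05% and 62.6% in mESCs and 0% in MEFs. Klf2 and Klf4 were the exceptions: Klf2 was covered over 100% in mESCs and 59.4% in MEFs, and Klf4 over 84.8% and 11.6%, and both had Pol II promoter peaks in both cell types. The lowest mESC values were those of Otx2, a factor of the exit from the naive state, with 7.03%, and Etv4, with 10.4%. With equal numbers of peaks, 18 and 2 of the 19 were called. In the KO libraries, 18 had H2Bub1 in mESCs and 8 in MEFs.

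Other genes of mESCs followed the same order, with 29 of 31 marked in mESCs and 6 in MEFs. Nodal, a TGF-beta family ligand, was covered over 100% in mESCs and its co-receptor gene Tdgf1 over 83.8%, and the antagonist genes Lefty1 and Lefty2 over 92.6% and 86.3%, all with 0% in MEFs. The chromatin factor gene Utf1, the ubiquitin ligase gene Trim71 and the retroelement-derived gene L1td1 had 97.4%, 97.7% and 70.5% in mESCs and 0% in MEFs. The 6 genes shared with MEFs were Fgfr1, Il6st, Jarid2, Lifr, Mkrn1 and Tet2, among them receptor genes of FGF and of LIF. The receptor gene Fgfr1 had 38.0% in mESCs and 42.5% in MEFs and the DNA dioxygenase gene Tet2 15.1% and 26.9%, while Tet1, of the same enzyme family, had 52.0% and 0%. Dppa3 and Lin28a had no peak in either list.

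Fibroblast genes were marked in MEFs at a higher share than the 31.7% of all genes, and in mESCs at shares near or below the 55.7% of all genes. Of 37 extracellular matrix genes, 28 (75.7%) had H2Bub1 in MEFs and 19 (51.4%) in mESCs, 14 of them in both, 14 in MEFs only and 5 in mESCs only. Covered shares were low in MEFs, with a median of 3.51%. The collagen I gene Col1a1 was covered over 60.7% in MEFs and 9.45% in mESCs, the thrombospondin gene Thbs1 over 61.1% and 0%, and the protease inhibitor gene Timp2 over 47.7% and 2.04%. The collagen genes Col1a2 and Col3a1 were covered over 7.40% and 0.954% in MEFs, although their Pol II promoter peaks in MEFs had fold enrichments of 43.3 and 49.2. Serpinh1, the collagen chaperone gene, was covered alike, over 83.8% in mESCs and 82.5% in MEFs. Fn1, which encodes fibronectin, and Sparc were covered more in mESCs, with 33.1% against 11.2% and 45.3% against 18.7%. With equal numbers of peaks 10 of the 37 were marked in mESCs and 28 in MEFs, and among peaks at or above a -log10 q of 3 the counts were 6 and 6, where 4609 of all 20807 genes were marked in mESCs and 1199 in MEFs.

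Of 40 mesenchymal transcription factor genes, 26 (65.0%) had H2Bub1 in MEFs and 18 (45.0%) in mESCs, with 13 in both and 13 in MEFs only. Among peaks at or above a -log10 q of 3 these counts were 7 and 6, beside 1199 and 4609 of all 20807 genes. Twist1, Snai2 and Zeb2, factors of epithelial-mesenchymal transition, were covered over 62.4%, 32.4% and 17.7% in MEFs and 0% in mESCs, and Zeb1 over 25.4% and 1.43%. The forkhead genes Foxc1 and Foxc2 had 58.7% and 49.2% in MEFs and 0% in mESCs, and the limb and skeletal factor genes Prrx1 and Tbx15 9.04% and 22.4% in MEFs and 0% in mESCs. Snai1 and Sox4 were covered in both, over 63.9% and 57.5% in mESCs and 49.8% and 56.1% in MEFs. Tead1, the DNA-binding partner of YAP, was covered more in mESCs, over 67.8% against 26.1%. Genes marked in mESCs only included Ebf1, Meox1, Osr2 and Pitx1, covered over 0.0604%, 6.02%, 5.66% and 8.62%.

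Surface and signalling genes of fibroblasts numbered 40, with 29 (72.5%) marked in MEFs and 21 (52.5%) in mESCs. By 20 points or more, 8 (20%) were covered more in MEFs and 4 (10%) in mESCs, beside 3.23% and 17.2% of all genes. Both orders turned among peaks at or above a -log10 q of 3. There 6 were marked in MEFs and 8 in mESCs, beside 1199 and 4609 of all 20807 genes. Covered more were 2 in MEFs and 3 in mESCs, beside 199 and 1390 of all genes. The mesenchymal cadherin gene Cdh11 was covered over 42.5% in MEFs and 0% in mESCs, the hyaluronan receptor gene Cd44 over 23.5% and 0%, and the TGF-beta receptor gene Tgfbr2 over 36.8% and 0.497%. The intermediate filament gene Vim had 39.2% in MEFs and 9.46% in mESCs. The 4 genes covered more in mESCs by 20 points or more were Amotl2, Eng, Ccnd1 and Itgb5. They had 100%, 47.4%, 73.6% and 29.55% in mESCs and 46.0%, 0%, 31.8% and 9.29% in MEFs. The records of Eng and Ccnd1 overlap another gene. The YAP target genes Ccn1 and Ccn2 were covered in both, over 92.8% and 68.2% in MEFs and 87.4% and 65.0% in mESCs. Of 34 contractile cytoskeleton genes, 31 (91.2%) were marked in MEFs and 30 (88.2%) in mESCs, both above the shares of all genes. By 20 points or more, 6 (17.65%) were covered more in MEFs and 4 (11.76%) in mESCs, beside 3.23% and 17.2% of all genes. Among peaks at or above a -log10 q of 3 these counts were 1 and 4, beside 199 and 1390 of all 20807 genes. The cytoplasmic actin genes Actb and Actg1 were covered over 100% in both, whereas the myosin light chain gene Myl9 had 76.0% in MEFs and 0% in mESCs, and Tagln, a smooth muscle actin-binding protein gene, 33.6% and 0%.

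**Figure D5:**
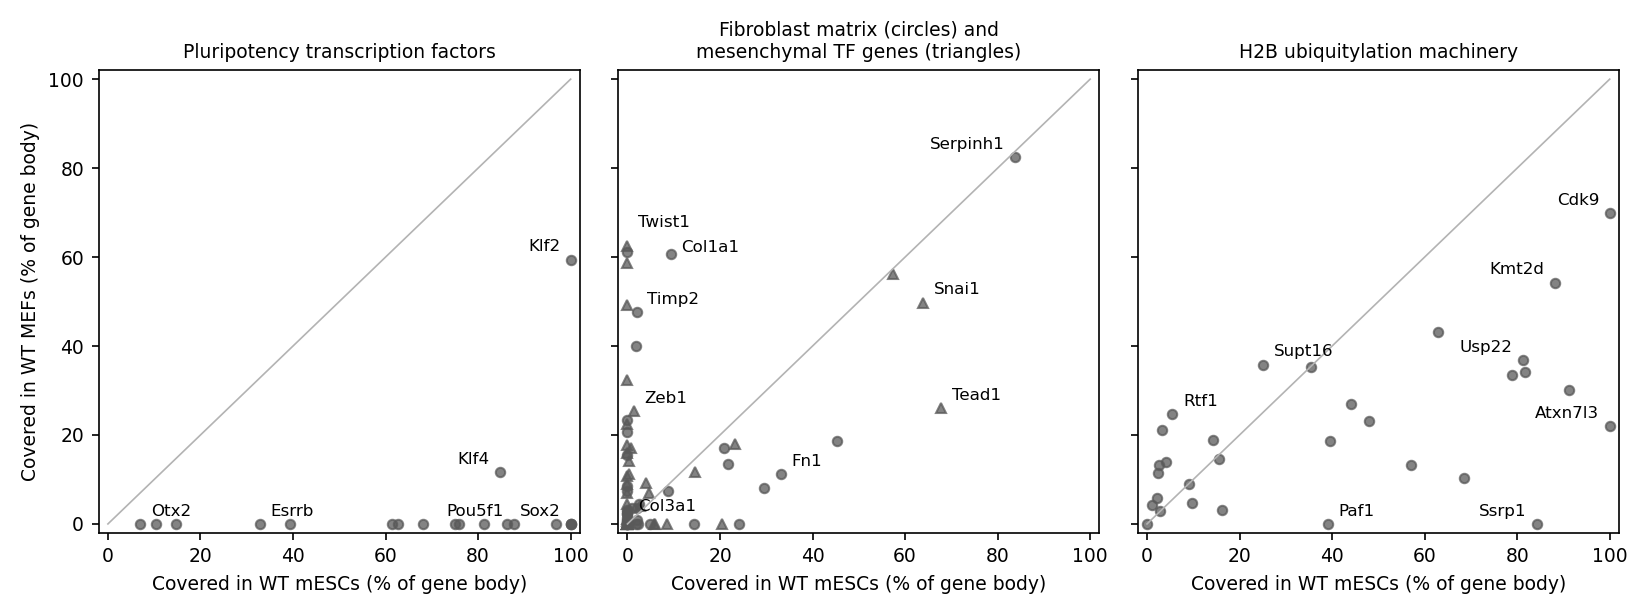
Covered share of the gene body in WT MEFs (vertical axes, %) against WT mESCs (horizontal axes, %) for members of 4 gene lists, 1 point per gene, with the line of equal shares. Pluripotency genes lie on the horizontal axis except Klf2 and Klf4, many fibroblast genes lie near the vertical axis, and genes of the H2B ubiquitylation machinery lie on both sides of the line, with Atxn7l3, Ssrp1 and Usp22 far below it.

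Most genes whose products write or erase the mark or act with it were marked in both cell types, and the covered shares differed in both directions, with medians of 35.4% in mESCs and 18.7% in MEFs. Of 31 measured, 30 had H2Bub1 in mESCs and 28 in MEFs, and 13 (41.9%) were covered more in mESCs by 20 points or more and 0 in MEFs (11 and 1 with equal numbers of peaks), beside the 17.2% and 3.23% of all genes. When a gene had to be covered over 10% to be called, the order of the marked genes turned, to 20 in mESCs and 22 in MEFs. Of the ligase genes, Rnf40 was covered over 78.9% in mESCs and 33.6% in MEFs, but Rnf20 over 2.42% and 11.4%. The conjugating enzyme gene Ube2b had 39.5% and 18.7%, and Wac, whose product recruits the ligase to Pol II, 3.22% and 21.1%. Among the PAF1 complex genes, Paf1 had 39.0% in mESCs and 0% in MEFs, Rtf1 5.50% and 24.7%, and Ctr9 9.04% in both. Of the FACT histone chaperone subunit genes, Ssrp1 was covered over 84.3% in mESCs and 0% in MEFs and Supt16 over 25.1% and 35.8%, and both records overlap another gene.

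In the deubiquitylation module, Atxn7l3 (ENSMUSG00000059995) was covered over 100% in mESCs and 22.0% in MEFs, and the protease gene Usp22 over 81.2% and 36.8%. The partner genes Eny2 and Atxn7 had 4.21% and 1.01% in mESCs and 14.0% and 4.21% in MEFs. Usp7, a protease with many substrates, had 91.2% and 30.1%, and Usp44, also a protease acting on H2B, had no peak in either list. The histone methyltransferase genes that act downstream of H2Bub1 were covered more in mESCs, with 81.6% against 34.1% at Dot1l, 68.5% against 10.4% at Setd1b and 88.1% against 54.2% at Kmt2d, but 35.4% against 35.2% at Kmt2a. The elongation kinase gene Cdk9 had 100% and 69.9%.

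Glycolysis genes were covered more in mESCs, with 20 of 21 (95.2%) marked in mESCs and 14 (66.7%) in MEFs, and 14 (66.7%) covered more in mESCs against 0 in MEFs, where all genes gave 55.7%, 31.7%, 17.2% and 3.23%. Gapdh, Eno1 and Pkm were covered over 100% in mESCs and over 48.9%, 24.0% and 43.2% in MEFs. Hk2, the hexokinase gene, had 87.9% and 9.51% and the glucose transporter gene Slc2a1 94.6% and 32.3%. The 76 cytosolic ribosomal protein genes, which are short (median 3.40 kb), were marked at 74 genes in mESCs and 73 in MEFs, with medians of 100% and 76.8% covered, and 33 were covered more in mESCs and 0 in MEFs. Of 47 proteasome genes, 41 (87.2%) were marked in mESCs and 36 (76.6%) in MEFs, above the 55.7% and 31.7% of all genes. Of these, 9 were covered more in mESCs and 7 in MEFs, but 4 and 9 with equal numbers of peaks. Of 358 zinc finger genes named Zfp, 222 were marked in mESCs and 168 in MEFs, and 44 were covered more in mESCs and 30 in MEFs, which is 12.3% and 8.38% beside the 17.2% and 3.23% of all genes. The order turned with equal numbers of peaks, where 35 were covered more in mESCs and 39 in MEFs.

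Marker genes of other lineages, some of which primary cells of embryos may hold, were marked at shares below or near those of all genes, which were 55.7% in mESCs and 31.7% in MEFs. Of 28 endothelial and blood genes, 11 were marked in mESCs and 1 in MEFs, of 20 neural genes 12 and 2, of 20 muscle and heart genes 10 and 2, and of 26 epithelial, trophoblast and endoderm genes 12 and 1. Most of these shares were small, with medians between 3.05% and 12.01% among the genes called in mESCs. The exceptions with over 90% covered in mESCs and 0% in MEFs were Foxd3, a factor also used in pluripotent cells, Olig2, Cldn4 and Cd68. With equal numbers of peaks the mESC counts were 5, 9, 4 and 6, and at a -log10 q of at least 3 the muscle and heart genes were 1 in mESCs and 2 in MEFs. The globin genes, the endothelial receptor genes Kdr, Tek and Tie1 and the leukocyte gene Ptprc had no peak in either list. Hox genes were marked below the shares of all genes, at 10 of 39 (25.6%) in mESCs and 4 (10.3%) in MEFs. Hoxa3, Hoxa5, Hoxa11 and Hoxb2 were the 4 in MEFs, covered over 1.96%, 30.6%, 8.04% and 17.8%, and the mESC count was 1 with equal numbers of peaks. Of 24 germline and 2-cell genes, 7 were marked in mESCs and 0 in MEFs, among them Tex19.1 with 100%.

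Of 26 imprinted genes, 16 (61.5%) were marked in mESCs, near the 55.7% of all genes, and 13 (50%) in MEFs, but 10 and 13 with equal numbers of peaks. Cdkn1c, a cell cycle inhibitor gene, was covered over 54.0% in mESCs and 0% in MEFs, whereas Grb10, a growth factor receptor adaptor gene, had 0% and 10.8%. Nnat had 20.98% and 100%, and Zrsr1 100% and 28.9%, and both of these records overlap another gene, so that the mark cannot be assigned to them alone.

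Covered bases were then summed over the separate peaks of each gene. Among genes covered in 1 cell type only, over at least 20% and not overlapping another gene, the 10 with the most covered bases were taken. In mESCs these were Plekha7 (chr7:116123485-116308376), an adherens junction protein gene, with 94.9 kb covered, the calcium channel gene Cacna1a with 84.9 kb, Tet1 with 54.3 kb, Ccdc88c with 52.6 kb, Esrrb with 52.6 kb, the alkaline phosphatase gene Alpl with 45.4 kb, Camk2b with 45.2 kb, the E-cadherin gene Cdh1 with 44.4 kb, the hypoxia factor gene Epas1 with 44.1 kb and Rab11fip4 with 44.0 kb. Alpl and Cdh1 were covered over 83.2% and 66.4% of the gene body. All 10 had H2Bub1 in KO mESCs, over 42.7 to 92.9% of the gene body, and 6 of them had none in KO MEFs. Pol II promoter peaks in mESCs were present at 6 of the 10.

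In MEFs the corresponding genes were Setbp1 with 72.6 kb, Cdh11 (chr8:102632095-102785642) with 65.3 kb, Zfp608 with 36.2 kb, the interferon regulatory factor gene Irf2 with 27.4 kb, Tbx15 with 25.5 kb, Cd44 with 21.2 kb, Rab8b with 18.9 kb, the peroxidasin gene Pxdn with 17.1 kb, the fibulin gene Fbln2 with 14.0 kb and Pja2 with 10.4 kb. All 10 had Pol II at the promoter in WT MEFs, with fold enrichments from 5.46 to 31.7, and 1 of them, Irf2, had one in WT mESCs. In KO MEFs these genes were covered over 42.5 to 92.1% except Tbx15, with 1.94%. Their GC contents ran from 38.1 to 51.7%, and those of the 10 mESC genes from 44.2 to 52.3%.

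Genes marked in both cell types could differ as much in covered bases. The largest excess of covered bases in mESCs was at Gli2, a transcription factor gene of Hedgehog signalling, with 158.9 kb against 6.12 kb. Itpk1, Kat6b, Rbpms and Tead1 followed, with 106.9, 124.5, 102.9 and 154.4 kb in mESCs and 1.43, 19.7, 1.95 and 59.3 kb in MEFs. The largest excess in MEFs was at Fndc3b, with 118.9 kb against 15.4 kb, and next came Zfand3, the BAF complex subunit gene Arid1b, Trio and the calcineurin gene Ppp3ca, with 134.8, 136.1, 84.4 and 76.0 kb in MEFs and 40.1, 45.7, 9.51 and 3.16 kb in mESCs. Rbms1 had 70.5 kb in MEFs and 0.33 kb in mESCs. A call at 1 bp would hide such differences, since all of these genes count as marked in both.

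Across the autosomes the ratio of MEF to mESC covered length ran from 0.438 on chromosome 11 to 1.07 on chromosome 18. Chromosome 11 had a median gene GC of 48.2% and held 12.5% of the covered bases in mESCs and 8.14% in MEFs, and chromosome 18 had a median gene GC of 43.7%.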

How the data were processed

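Chromatin of mESCs and MEFs was immunoprecipitated for H2Bub1 and Pol II in buffers with N-ethylmaleimide, 1 library per cell type and genotype, and the deposited peak lists of both WT H2Bub1 libraries were compared. Per the submitters' processing notes and the study's methods, the authors made reads with bcl2fastq 2.17.1.14, aligned them to mm10 with Bowtie 1.0.0 and called broad peaks with MACS2 2.1.1.20160309. The control and cut-offs of the peak calling are not given in the sources used here. For H2Bub1, DESeq2 size factors over intergenic regions were used by the authors to scale signal, and the methods name this normalization before the peak calling without saying how it entered the calls. The deposited fold enrichment is a linear ratio to a peak's own background. The deposited p and q values are -log10 values, and the deposited score is a rounded multiple of the latter. The lists carry no read counts, so depth is unknown and no interval of a level can be given.

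Peaks on autosomes were intersected with 20807 protein-coding gene records of GENCODE M21 using Python 3.11.15, numpy 2.4.6, pandas 2.3.3 and scipy 1.17.1, and figures were drawn with matplotlib 3.10.9. A gene was called at 1 bp of peak in its body. A covered share was compared at 20 percentage points. The Pol II promoter was the TSS with 1000 bp on both sides. A gene with overlapping neighbours (22.1% of genes) can count their mark. GC content and promoter windows came from RefSeq GRCm38.p6. Counts and the interval of a median were checked on artificial peaks first. With 1 library per group no test was made. Of genes covered in 1 cell type only over at least 20%, and of genes with both, the 10 with the most covered bases or the largest difference, not overlapping another gene, were named, and of each list the 5 widest and the 5 highest peaks. Members and gene lists were chosen with earlier results of these data known. Alternatives were a -log10 q of 3, equal numbers of peaks or covered length, joined peaks, a 10% gene call, a 50% overlap, genes 5000 bp apart and the inclusion of X and Y. Some of the genes and peaks that these rules named are not reported here.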

Additional observations from a re-analysis of the deposited data

Results flagged for a closer look

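The sex chromosomes lay outside the comparisons of the report, which used autosomes, and both lists held peaks there. On chromosome X there were 233 H2Bub1 peaks in WT mESCs and 145 in WT MEFs, and on chromosome Y there were 4 in mESCs. They stand here because the signal appeared outside the chromosomes that the report compared, and they entered only the repeat of the results with X and Y added. Input libraries of both WT cell types are among the samples, and their signal on X and Y was not analysed here.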

How the results depend on the processing

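Several values differed with the peaks that were kept, whose number and strength change together. At a -log10 q of at least 3, the MEF to mESC ratio of peak numbers was 0.239 and that of covered length 0.356, MEF peaks were 917 bp wider at the median, 4609 genes were marked in mESCs, 1199 in MEFs, 3650 in mESCs only and 240 in MEFs only, 16.4% of mESC and 56.6% of MEF peaks were overlapped, and the share of covered bases in gene bodies was 5.73 points higher in MEFs. The covered share of genes with both was then -3.98 points (mESCs minus MEFs) (interval -8.66 to 1.70) and the place of the mean covered base -8.16 points, both of opposite sign to the lists as deposited. With equal numbers of peaks (ratio 1), MEF minus mESC width was -87 bp and the covered share -1.79 points (-3.35 to 0.24), again of opposite sign, the place differed by 0.575 points, 3303 genes were marked in mESCs only and 1038 in MEFs only, 42.6% and 40.3% of peaks were overlapped and the gene-body share differed by 5.34 points. With equal covered length (ratio 1), the ratio of peak numbers was 1.08, the width difference -126 bp, the covered share -2.42 points and the place -0.602 points (-2.17 to 1.11), all of opposite sign, with 3103 and 1122 genes in 1 cell type only, overlaps of 44.0% and 39.1% and a gene-body difference of 5.34 points. A call at 10% of the gene body gave 6833, 3973 and 926 genes for mESCs, MEFs and MEFs only, and an overlap of 50% gave 19.6% and 33.9%. Over genes 5000 bp apart the counts were 4069, 2456, 1868 and 255, since fewer genes were tested, the covered share was -1.23 points (-3.59 to 1.38) and the place 3.52 points. Joining peaks and adding X and Y left each of these results on its side. Alternatives chosen after seeing the data gave 2277 genes covered more in mESCs and a GC difference of 5.95 points at equal covered length, while the distances of 400 and 950 bp from the TSS stayed. Where an interval includes 0, no order of the cell types is shown. Other causes of these shifts were not tested. No paired analysis was possible because each group has 1 library. Depth is unknown, so a gene without a peak was below the call and not shown to lack the mark.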

Other observations

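Gene length went with the covered share in both cell types. Among genes with H2Bub1 in both, those shorter than 5 kb had medians of 82.9% of the gene body covered in mESCs and 55.0% in MEFs, and those longer than 100 kb had 3.20% and 4.91%. mESCs had the higher median in the 3 classes up to 50 kb and MEFs in the classes of 50 to 100 kb (8.24% against 12.5%) and over 100 kb. The share of genes marked was highest at 50 to 100 kb in both, with 69.4% in mESCs and 49.4% in MEFs. Longer genes are also poorer in GC, with medians of 50.2% under 5 kb and 42.5% over 100 kb, and the order depended on GC: in the highest of 5 equal parts by GC, mESCs had the higher median also at 50 to 100 kb (40.3% against 14.2%) and over 100 kb (28.5% against 4.45%).

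The letters TATAAA on either strand of the 300-base promoter window were found in 5.39% of the genes with H2Bub1 in both, 6.54% of those marked in mESCs only, 11.4% of those marked in MEFs only and 19.7% of those without a peak, against 11.2% of all 13555 windows. The match describes the letters and is not a binding site. The mESC peaks outside protein-coding genes were narrow, with a median width of 665 bp (646 to 684 bp), and the MEF ones had 950 bp (851 to 1021 bp).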
